A study of Arabidopsis thaliana with 6 samples.

Results

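The cytochrome P450 genes described here are the 23 genes whose single symbol in the array's platform annotation follows P450 nomenclature, that is CYP, a family number and a subfamily letter. They were chosen by name, with earlier results of these data known, out of 13350 genes with a probe set of their own in that annotation. Each is read by 1 of the 22746 probe sets (groups of short probes against 1 transcript) that were tested. The RefSeq gene table holds 236 Arabidopsis thaliana symbols of this form, so the 23 are a small and uneven sample of the superfamily. Of the 23, 19 belong to subfamily CYP71B, and the other 4 are CYP51G2, CYP78A9, CYP79A2 and CYP84A4. A further 2 probe sets that the annotation gives to several genes, at least 1 of them a P450, and 5 probe sets that the rule set aside, are not used here.

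The samples were fluorescence-sorted cells of 5-day-old seedlings of the C24 ecotype that carry J2632-UAS::ARR1ΔDDK-GR. J2632 is an enhancer trap line used as a marker of the lateral root cap, the outer sheath of the root tip, and it drives a fusion of the cytokinin-response transcription factor ARR1, without its DDK domain, to the glucocorticoid receptor. Untreated seedlings were compared with seedlings after 1 h and after 4 h of dexamethasone, the ligand that lets the fusion enter the nucleus, with 2 biological replicates and 2 ATH1 arrays per group. All 3 groups carried the construct and none was without it, so an effect of dexamethasone or of elapsed time and an effect of the fusion cannot be told apart. The labels give no concentration.

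Cytochrome P450s are haem-containing monooxygenases, most of them anchored in the endoplasmic reticulum, that take electrons from NADPH-cytochrome P450 reductase and insert an oxygen atom into a substrate. Plants use them in the synthesis and breakdown of hormones, sterols, phenylpropanoids, glucosinolates and many defence compounds. The CYP71B subfamily of Arabidopsis is large, lies partly in tandem arrays, and has a known substrate for only some of its enzymes.

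On each array 58.1% to 67.8% of all probe sets exceeded background, taken as the 95th percentile of the array's Bacillus subtilis control probe sets, against 39.1% to 56.5% of the P450 genes. Arrays of different groups correlated at 0.953 to 0.969 in log2 signal, and of the replicate pairs only that at 4 h (0.972) exceeded this range. Among the root cap markers, the polygalacturonase AT1G65570 and the carboxypeptidase-like scpl48 exceeded background on all 6 arrays and AT1G49200 on 1. Markers of the other root cell types were at or near background: EXPA7 of root hair cells, AT1G62500 of the cortex and AGL42 of the quiescent centre exceeded it on 0 arrays, and EXPA18 of root hair cells and AT1G09750 of the cortex on 2 each. The summed intensity of these 5 ran from 98 to 149 over the 6 arrays. No endodermis, stele or non-hair marker could be measured under the annotation.

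Of the 23 P450 genes, 8 exceeded background on all 6 arrays, which makes 34.8% against 51.2% of all probe sets. These 8 were CYP71B6, CYP71B22, CYP71B23, CYP84A4, CYP51G2, CYP71B5, CYP71B27 and CYP78A9. Another 8 exceeded it on 1 to 5 arrays, and 7 on none (30.4%, against 19.1% of all probe sets). The 7 were CYP71B16, CYP71B24, CYP71B31, CYP71B34, CYP71B36, CYP71B37 and CYP79A2. For these no difference is given as a fold, because their signals cannot be told from background. Signals of different probe sets also depend on their probes, so differences in level are read between arrays for 1 gene at a time. Where genes are ordered by signal, or their numbers of arrays above background stand side by side, this does not rank their transcripts.

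**Figure D1:**
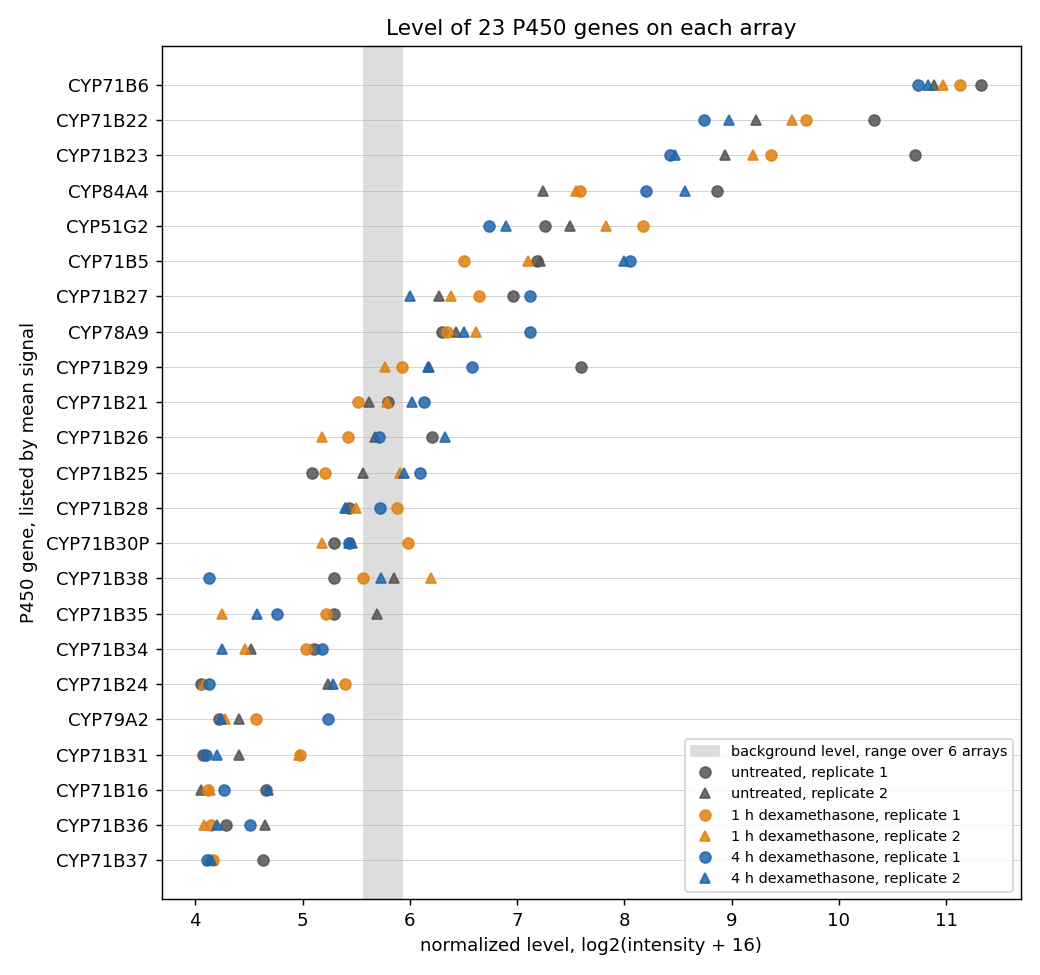
Normalized level of each of the 23 P450 genes on each array, as log2 of intensity plus 16, with colour for the group, circle or triangle for the replicate, and a grey band for the background level over the 6 arrays. The 8 genes from CYP71B6 down to CYP78A9 lie above the band on every array, and the 7 lowest rows lie below it on every array.

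No P450 gene passed the test in any comparison. The test was limma's moderated test over all 6 arrays on quantile-normalized log2(intensity + 16), with Benjamini-Hochberg adjustment over all probe sets and an adjusted p under 0.05 as the threshold. For 1 h against untreated 0 of 23 passed, as did 0% of all probe sets. For 4 h against untreated the count was 0 of 23 against 0.0044% (1 probe set), and for 4 h against 1 h 0 of 23 against 0.022% (5 probe sets). At an unadjusted p under 0.05 there were 2 of 23 P450 genes in the first comparison (background 5.78%), 3 of 23 in the second (9.08%) and 3 of 23 in the third (9.24%). CYP71B31, below background on every array, was among those of the first and the third. What follows is therefore a description of levels, and the 2 arrays per group limit its precision.

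In 3 CYP71B genes the signal was lowest on both 4 h arrays. CYP71B6 is an enzyme that turns indole-3-acetonitrile into indole-3-carbaldehyde and indole-3-carboxylic acid, compounds of the indole defence pathway. Its deposited intensities were 2622 and 1882 in the untreated replicates, 2192 and 1977 at 1 h, and 1702 and 1798 at 4 h. Both 4 h arrays thus lay below all the others, while the untreated and 1 h arrays overlapped. The log2 level was 11.11 ± 0.31 (SD, n = 2) untreated, 11.05 ± 0.11 at 1 h and 10.79 ± 0.06 at 4 h. At 4 h CYP71B6 differed from untreated by -0.32 (SE 0.25, adjusted p = 0.771 in limma), a difference about the size of the untreated SD.

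CYP71B22 and CYP71B23 are direct neighbours on chromosome 3, and no substrate is given for either here. For CYP71B22 the intensities were 1275 and 590 untreated, 798 and 726 at 1 h, and 409 and 484 at 4 h. For CYP71B23 they were 1659 and 485 untreated, 638 and 571 at 1 h, and 327 and 337 at 4 h. In both genes untreated replicate 1 stood far above the other 5 arrays, and the 4 h pair lay below all of them. The log2 difference at 4 h from untreated was -0.92 (SE 0.38, unadjusted p = 0.0471, adjusted p = 0.540) for CYP71B22, a factor of 1.89. For CYP71B23 it was -1.38 (SE 0.54, unadjusted p = 0.0399, adjusted p = 0.519), a factor of 2.59. Without untreated replicate 1 these differences were -0.37 and -0.49, and without untreated replicate 2 they were -1.47 and -2.27, so that 1 untreated array sets most of their size. On untreated replicate 1 the ratio of 3' to 5' signal of the GAPDH control, a sign of RNA quality, was 3.11, the lowest of a range that reached 4.65, and its part in the result was not tested. Against 1 h the differences at 4 h were -0.77 (SE 0.38, adjusted p = 0.596) and -0.84 (SE 0.54, adjusted p = 0.683), with an SE pooled over all 6 arrays, the spread of the untreated pair included. With untreated replicate 1 left out, the adjusted p of these 2 differences was 0.378 and 0.361, and with untreated replicate 2 left out 0.373 and 0.351.

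The 3 genes ranked the 6 arrays alike: untreated replicate 1 highest, then 1 h replicate 1, 1 h replicate 2, untreated replicate 2, 4 h replicate 2 and 4 h replicate 1. This order is shared by 69 of all probe sets (0.303%). The order was read from these same data, so the share is no test of a link between the 3 genes. CYP71B6 lies on chromosome 2, away from the other pair. Whether probes of CYP71B22 also bind transcripts of CYP71B23, or the reverse, was not tested, since the table holds no probe-level values. The root cap marker scpl48 was also lowest on the 4 h arrays, at 2380 and 2689 against 3841 to 5155 on the other 4, and the summed intensity of the 3 root cap markers was 3375 and 3403 on these, 4524 and 4638 on the untreated arrays and 6748 and 5490 on those of 1 h. The other root cap marker above background throughout, AT1G65570, read 643 and 771 on the untreated arrays, 1550 and 1539 on those of 1 h, and 978 and 706 on those of 4 h, so its untreated and 4 h arrays overlapped. The part of the cells these markers stand for in the lower 4 h signal of the 3 CYP71B genes was not tested. In RNA from sorted cells, fewer cells of a type and less RNA per cell cannot be told apart. All 23 P450 genes are read by probe sets with the plain suffix that the array's maker gives to probes meant for a single transcript.

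In CYP51G2 and CYP71B5 the normalized levels at 1 h and at 4 h lay on opposite sides of the untreated pair, for CYP71B5 by a narrow margin at 1 h. CYP51G2 is related to the sterol 14-demethylase of Arabidopsis, and RefSeq lists it as a transcribed pseudogene. Its intensities were 129 and 170 untreated, 270 and 214 at 1 h, and 90.6 and 104 at 4 h, with no overlap between any groups. The log2 level was 7.37 ± 0.17 (SD, n = 2) untreated, 8.0 ± 0.24 at 1 h and 6.82 ± 0.11 at 4 h. CYP51G2 differed from untreated by 0.63 at 1 h (SE 0.24, unadjusted p = 0.0378, adjusted p = 0.836) and by -0.55 at 4 h (SE 0.24, adjusted p = 0.574). Between 4 h and 1 h the difference was -1.18 (SE 0.24, unadjusted p = 0.00224), a factor of 2.27 and the smallest adjusted p of any P450 gene in this fit, 0.303. The sterol demethylase gene itself was not analysed here, so a share of the CYP51G2 signal from that related transcript was not tested.

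For CYP71B5 the 4 h arrays were the highest. Its intensities were 123 and 136 untreated, 80.6 and 124 at 1 h, and 248 and 239 at 4 h. The 4 h arrays lay well above the rest, while 1 h replicate 2 lay between the untreated replicates as deposited and just below both of them (7.10 against 7.19 and 7.21) after normalization. On the log2 scale the levels were 7.20 ± 0.02 (SD, n = 2), 6.80 ± 0.41 and 8.02 ± 0.04. At 4 h CYP71B5 differed from untreated by 0.82 (SE 0.27, unadjusted p = 0.0191, adjusted p = 0.440), a factor of 1.77, and from 1 h by 1.22 (SE 0.27, unadjusted p = 0.00302, adjusted p = 0.325), a factor of 2.33. At 1 h the difference from untreated was -0.40 (SE 0.27, adjusted p = 0.924), and it was -0.11 without 1 h replicate 1 and -0.69 without 1 h replicate 2. Groups placed like those of CYP51G2, with 1 h above and 4 h below untreated, were found for 1.57% of all probe sets, and groups placed like those of CYP71B5 for 1.56%. Both placements were read from these same data, so the shares are no test of either gene. The comparisons of 1 h and of 4 h with untreated share the same 2 untreated arrays.

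**Figure D2:**
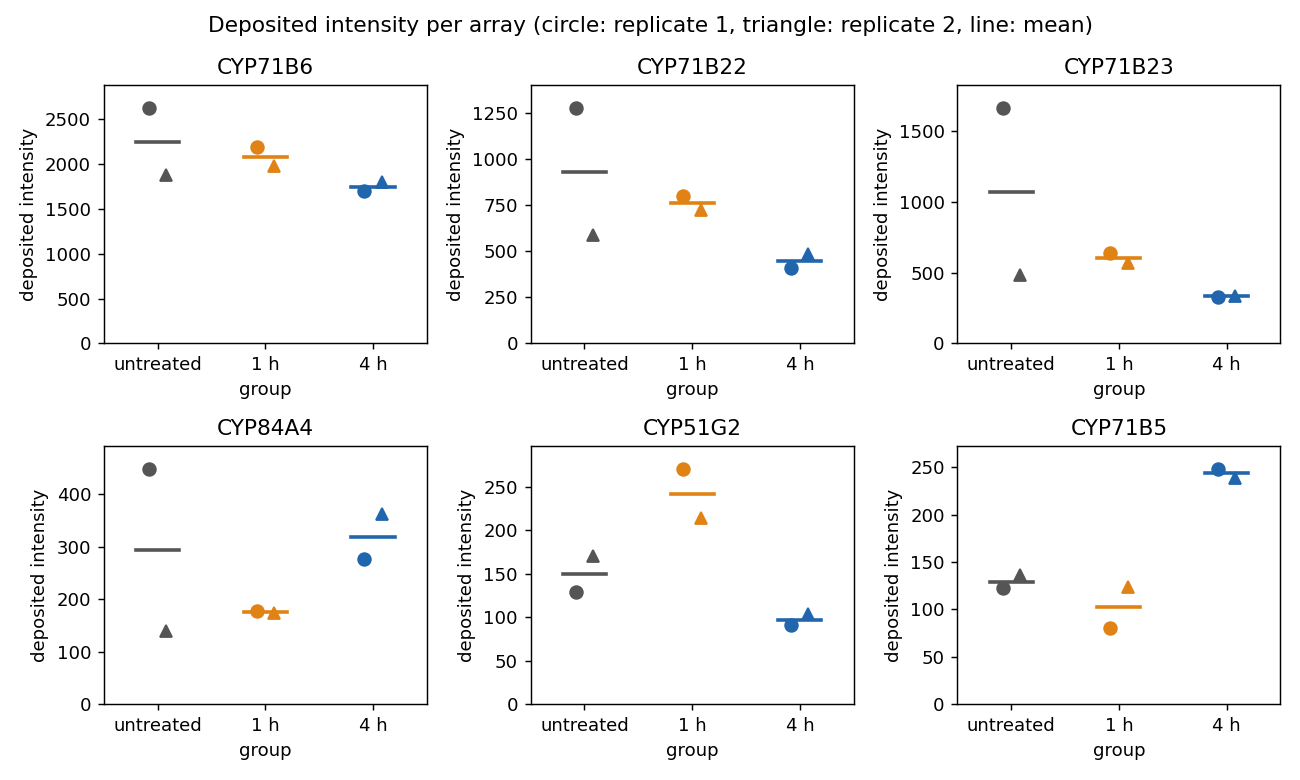
Deposited linear intensity of 6 P450 genes on each array by group, with a circle for replicate 1, a triangle for replicate 2 and a line for the group mean; each vertical axis starts at 0 and has its own scale. Untreated replicate 1 stands apart in CYP71B22, CYP71B23 and CYP84A4, and the 4 h arrays are lowest in CYP71B6, CYP71B22, CYP71B23 and CYP51G2 and highest in CYP71B5.

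CYP84A4, an enzyme of the phenylpropanoid class that takes part in the synthesis of arabidopyrones, split the untreated replicates. It measured 448 and 139 untreated, 177 and 174 at 1 h, and 276 and 362 at 4 h as deposited intensity. The 4 h arrays were above both 1 h arrays, and the untreated pair enclosed all the others. At 4 h CYP84A4 differed from 1 h by 0.82 on the log2 scale (SE 0.51, adjusted p = 0.674) and from untreated by 0.34 (SE 0.51, adjusted p = 0.899). The untreated SD of 1.15 was larger than either difference.

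Of the other phenylpropanoid genes, listed for comparison, 3 could be measured: CCOAMT, HCT and CCR2. Of these, 0 passed the test in any comparison, and CCR2 was below background on every array. CCOAMT, annotated as a caffeoyl-CoA methyltransferase, read 579 and 182 untreated, 264 and 282 at 1 h, and 65.4 and 72.9 at 4 h. Both of its 4 h arrays lay below the other 4, with a difference from untreated of -1.97 (SE 0.50, adjusted p = 0.345), and its untreated replicates stood apart in the same direction as those of CYP84A4. HCT, an acyltransferase of the monolignol route, differed by -0.23 (SE 0.23, adjusted p = 0.835).

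CYP78A9, of a subfamily known to promote growth of fruits and seeds, measured 57.5 and 69.0 untreated, 72.1 and 84.9 at 1 h, and 122 and 75.6 at 4 h. Both 4 h arrays were above both untreated ones, and 4 h replicate 1 was the highest. The difference of 4 h from untreated was 0.45 (SE 0.28, adjusted p = 0.713), and 0.14 without 4 h replicate 1. CYP71B27, which RefSeq lists as a transcribed pseudogene, measured 101 and 58.2 untreated, 89.0 and 70.2 at 1 h, and 122 and 48.8 at 4 h. Its groups overlapped in every comparison, with differences from untreated of -0.10 (SE 0.43) at 1 h and -0.05 (SE 0.43) at 4 h.

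Of the 8 genes above background on 1 to 5 arrays, CYP71B29, of the same chromosome 1 cluster as CYP71B27, had a single array well above the rest. It read 169 and 53.4 untreated, 52.0 and 40.3 at 1 h, and 79.2 and 56.6 at 4 h. Both 1 h arrays lay below both untreated ones, a log2 difference of -1.05 (SE 0.46, adjusted p = 0.873), which was -0.34 without untreated replicate 1. Untreated replicate 1 was the highest array for 6 of the 23 genes and for 4 of the 8 above background throughout. The share of all probe sets highest on that array was not computed, so nothing is read from these counts.

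CYP71B21, CYP71B25 and CYP71B26 lay close to background, and each exceeded it on both 4 h arrays. CYP71B25 read 16.8 and 27.4 untreated, 24.1 and 46.2 at 1 h, and 51.3 and 46.5 at 4 h. It was below background on both untreated and both 1 h arrays, so that 4 h was at least 1.30-fold higher than untreated and at least 1.15-fold higher than 1 h (adjusted p = 0.587 and 0.700). These bounds set the mean of the bright group against the background level of each dim array (the smallest normalized value counted as above background there), or the gene's own level where that is higher, and they leave out the bright group's spread. CYP71B21 read 37.0 and 29.3 untreated, 35.5 and 41.5 at 1 h, and 52.9 and 49.6 at 4 h. It was below background on both 1 h arrays, so that 4 h was at least 1.19-fold higher than 1 h (adjusted p = 0.632), and its level at 4 h lay 0.37 above untreated on the log2 scale (SE 0.23, adjusted p = 0.711). CYP71B26 read 53.4 and 31.1 untreated, 31.5 and 20.5 at 1 h, and 35.0 and 64.8 at 4 h. It was below background at 1 h, with untreated at least 1.09-fold higher (adjusted p = 0.888) and 4 h at least 1.14-fold higher (adjusted p = 0.559). Background intensity was itself higher on the 1 h arrays, at 43.23 and 47.13, against 29.14 to 33.38 on the untreated and 4 h arrays. Being below background at 1 h rests in part on that. For CYP71B25, 46.2 on 1 h replicate 2 counted as below background and 46.5 on 4 h replicate 2 as above it. For CYP71B21 the untreated and 1 h intensities overlapped. The other 4 of these 8, CYP71B28, CYP71B30P, CYP71B35 and CYP71B38, exceeded background on 1 to 3 arrays, with intensities between 1.53 and 59.8.

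Of the 7 genes below background throughout, CYP79A2 and CYP71B31 have a known substrate. CYP79A2 makes phenylacetaldoxime from phenylalanine, the first step to benzylglucosinolate, and its intensities ran from 2.37 to 21.5. CYP71B31, an oxidase of linalool, read 0.744 and 5.55 untreated, 17.3 and 15.2 at 1 h, and 1.20 and 2.58 at 4 h. Both 1 h arrays were above the other 4, with an unadjusted p of 0.0171 against untreated (adjusted p = 0.784), but all 6 values were below background.

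The P450 genes lie unevenly along the genome, and 17 of the 23 fall into 3 clusters, in which no more than 10 protein-coding genes or pseudogenes stand between neighbours. The largest, on chromosome 3, holds 11 of the 23, all of them CYP71B genes, from AT3G26150 (CYP71B16) to AT3G26330 (CYP71B37). Other genes of this stretch, which are not among the 23, were not examined. Of the 11, only CYP71B22 (AT3G26200) and CYP71B23 (AT3G26210) exceeded background on all 6 arrays, 4 did so on 1 to 5 arrays and 5 on none. The next of the 11 on either side, CYP71B21 and CYP71B24, exceeded it on 4 arrays and on 0. Between CYP71B23 and CYP71B24 lies 1 gene that is not among the 23. The second cluster, CYP71B27, CYP71B28 and CYP71B29, had 6, 2 and 5 arrays above background, and the third, CYP71B5, CYP71B30P and CYP71B31, had 6, 1 and 0.

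**Figure D3:**
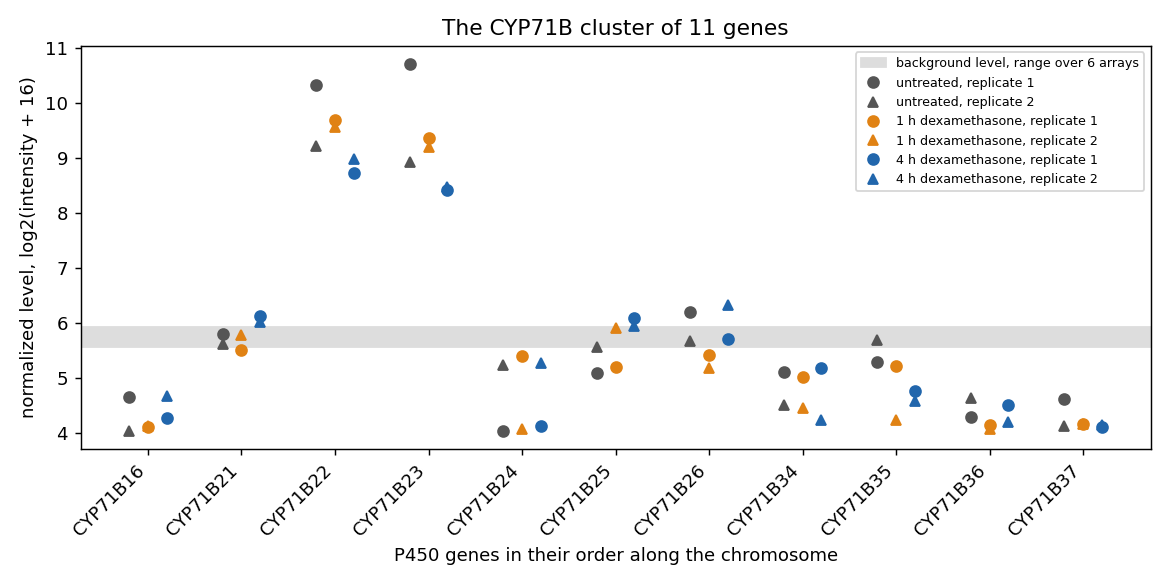
Normalized level, log2 of intensity plus 16, of the 11 CYP71B genes analysed in the largest cluster, in their order along the chromosome. The groups stand side by side (colour), with the replicates as circle and triangle and the background range as a grey band. Genes between them that are not among the 23 are not shown. CYP71B22 and CYP71B23 stand above the band on all 6 arrays, with untreated replicate 1 highest and the 4 h pair lowest.

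Over all 23 genes, those below background included, the medians were close to those of all probe sets. At 1 h 9 were higher and 14 lower than untreated, with a median log2 difference of -0.07 (range -1.05 to 0.73) against 0.00 over all probe sets. At 4 h 11 were higher and 12 lower, with a median of -0.05 (range -1.38 to 0.82) against -0.01. From 1 h to 4 h the split was again 11 and 12 and the median -0.03 (range -1.18 to 1.22), with 0.00 over all probe sets. For the 11 genes whose mean over the 6 arrays exceeded the mean background, the medians were -0.16, -0.05 and 0.33 in the same order of comparisons, against -0.01, -0.01 and 0.01 for all such probe sets. Of these 11, 2 were higher and 9 lower at 1 h than untreated (18.2% higher, against 48.2% of such probe sets). At 4 h 5 were higher and 6 lower than untreated (45.5% against 48.8%), and 7 higher and 4 lower than at 1 h (63.6% against 50.6%). CYP71B21 and CYP71B26, below background on both 1 h arrays, are among the 11 only through their signal in the other groups. That they count as lower at 1 h than untreated and than at 4 h follows in part from this choice. The 1 h split rests on the same 2 untreated arrays for every gene, and nothing is called from it. The median deviation of the 11 genes from their own means was 0.40 on untreated replicate 1 and -0.19 on untreated replicate 2. On the 1 h arrays it was -0.20 and -0.02, so only untreated replicate 1 stood well above them by this measure.

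Groups of 2 arrays that do not overlap are common in these data, so a count of them says little. They were found for 8 of 23 P450 genes between 1 h and untreated (31.1% of all probe sets), for 9 between 4 h and untreated (40.6%) and for 14 between 4 h and 1 h (43.8%). Of the 14, 8 were higher at 4 h (21.8% of all probe sets) and 6 lower (22.1%). The counts include genes below background on every array. These were CYP71B31 and CYP71B36 between 1 h and untreated, and CYP71B16, CYP71B31, CYP71B36 and CYP71B37 between 4 h and 1 h.

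**Figure D4:**
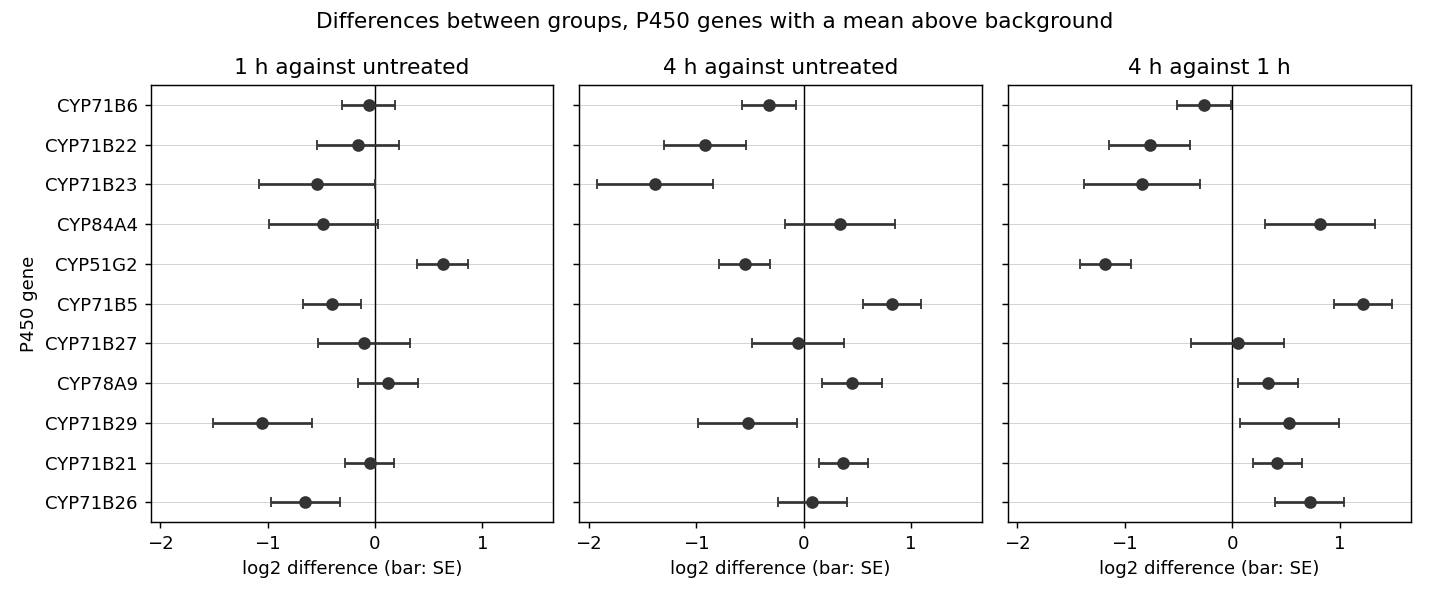
Log2 difference, with its SE from the limma fit as a bar, for the 11 P450 genes with a mean above background in each of the 3 comparisons. The differences of CYP51G2 and of CYP71B5 from untreated have opposite signs at 1 h and at 4 h, and at 1 h CYP71B21 and CYP71B26 were below background, so their differences from that group are not folds.

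The roles for which P450 enzymes are best known in hormone biology could not be followed. Of 18 lists of P450 genes by role, 13 had no gene that could be measured under the annotation, among them those of brassinosteroid, gibberellin, abscisic acid, strigolactone, jasmonate and cytokinin metabolism. The other 5 lists had 1 measured gene each (CYP84A4, CYP71B6, CYP79A2, CYP71B31 and CYP78A9, all described above). Partners of these pathways, such as the P450 reductases and cytochrome b5 proteins, were measurable for 1 of 6 lists, that of the phenylpropanoid genes.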

How the data were processed

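The authors' deposited table holds 1 linear intensity per probe set and array (ATH1, 2-cycle biotin labelling, per the labels). The summarising software and a genome build are not given in the sources used here. Each deposited column has a mean of 250.03 after trimming 2% at each end, so the arrays had been scaled to a common level. Of 22810 rows, 64 are control probe sets; 27 Bacillus subtilis controls set the background.

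From there log2(intensity + 16) was quantile normalized, since column medians spanned 0.215, and limma 3.58.1 (R 4.3.3) estimated 1 mean for each group over the 6 arrays. The fit was first tested on simulated data, with changes larger than any P450 difference of the main fit and placed in bright probe sets. That test does not show how well smaller changes, or changes in dim probe sets, are recovered. P-values are two-sided and adjusted by Benjamini-Hochberg over 22746 probe sets.

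Names come from the platform annotation of 2016; 13513 probe sets have 1 gene, 503 several and 8730 are not listed there. RefSeq (TAIR10.1) gave locus, biotype and neighbours; no coordinates are given. All 23 genes matched, with 1 probe set each.

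Genes described are those with the 10 highest means, up to 5 per direction and comparison whose groups do not overlap and that exceed background on both arrays of a group, and the brightest gene of each role list; other P450 genes appear by range, count or as examples chosen after their values were seen. The genes and lists were chosen with earlier results of these data known. Alternatives covered normalization, pseudocount, filter, prior variance, array weights, replicate block and each array left out.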

Additional observations from a re-analysis of the deposited data

Results flagged for a closer look

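For 2 P450 genes the normalized levels at 1 h and at 4 h lay on opposite sides of the untreated pair. For CYP51G2 the difference from untreated at 4 h minus that at 1 h was -1.18 on the log2 scale, with both 1 h arrays above and both 4 h arrays below the untreated pair. For CYP71B5 it was 1.22, with both 4 h arrays above the untreated pair and both 1 h arrays below it after normalization only: as deposited, 1 h replicate 2 (124) lay between the untreated replicates (123 and 136). Limma's test of the difference between the times did not pass for either gene (adjusted p = 0.303 and 0.325). Normalized groups so placed occur in 1.57% and 1.56% of all probe sets, and each placement in 1 of the 23 P450 genes. The placements were read from these same data, so the shares are no test of either gene. With 2 arrays per group no array could be tested as an outlier within its group.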

How the results depend on the processing

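The count of P450 genes past the threshold was 0 in all 3 comparisons under each of the 13 alternatives run, while calls over all probe sets at 4 h against untreated ranged from 0 to 123 (prior variance that follows the signal level). The smallest adjusted p of any P450 gene was 0.0995, for CYP51G2 between 4 h and 1 h with a pseudocount of 64. All 21 single-gene differences described by their non-overlapping groups kept their sign wherever they were fitted. Groups that do not overlap keep their order when 1 array is left out. The kept signs were thus largely fixed by the choice of these differences and lend them no weight. The median over the P450 genes, whose spread between replicates was 0.12 (SD), moved by more than that in some cases. Between 4 h and 1 h it was 0.10 with a pseudocount of 1 and 0.33 with the filter on dim probe sets, which leaves 11 of the 23 genes. Leaving out 1 array gave medians of -0.28 to 0.05 at 1 h, -0.18 to 0.15 at 4 h and -0.14 to 0.24 between 4 h and 1 h. Without untreated replicate 1 the medians at 1 h and at 4 h were 0.05 and 0.15. Without untreated replicate 2 they were -0.28 and -0.18. The sign of both thus changed with the untreated array that was left out, and the cause was not tested. With the replicate number as a block, 0 P450 genes passed in each comparison. The deviations of same-numbered arrays from their group means correlated at 0.117, -0.0187 and -0.042 over all probe sets. This gave no sign that the numbers pair the samples. With 1 pair of arrays per group it cannot exclude a shared day or batch. Averaging several probe sets of a gene was not run, since each gene has 1. Signals near background limit what can be said of 15 of the genes.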

Other observations

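CYP718, a P450 without a subfamily letter and so outside the naming rule, exceeded background on all 6 arrays. Its intensities were 374 and 267 untreated, 303 and 169 at 1 h, and 391 and 324 at 4 h. Both 4 h arrays were above both 1 h arrays, and the difference of 0.63 on the log2 scale (SE 0.35) had an adjusted p of 0.640 in limma. CYP59 and CYP71 in the same annotation are cyclophilins, proline isomerases whose symbols share the letters with the P450s, and they are not counted among them.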
